A study of Rattus norvegicus with 18 samples.

Results

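The difference between the transcript response of the rat hippocampus and that of the rat cortex to chronic immobilization stress was measured on Affymetrix arrays. The response of each region was the stress mean minus the handled mean on the log2(intensity + 16) scale, and the quantity described here is the hippocampal response minus the cortical response. A positive value therefore means that a transcript was relatively higher after stress in hippocampus than in cortex, which can come from a rise in hippocampus, a fall in cortex or both. The members were chosen by design and not by level: 12 of the 18 arrays of the series, and all 31042 of the 31099 probe sets that are not Affymetrix controls. The 4 groups were stress hippocampus, handled hippocampus, stress cortex and handled cortex, each with 3 arrays. Stress animals underwent chronic immobilization, and the controls were handled without stress. Strain, age, sex and the schedule of immobilization are not given in the labels used here. Nothing in the labels tells single animals from pools or from repeat hybridisations, or ties the regions to shared animals. The p-values therefore reflect spread from array to array, part or all of which may be technical. One label field names the amygdala as the source for every array, whereas the titles and descriptions name the region, and the region was taken from these.

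Chronic restraint and immobilization are standard rodent models of sustained stress. Adrenal corticosteroids released during stress act on mineralocorticoid and glucocorticoid receptors, and the hippocampus is rich in mineralocorticoid receptors. Chronic restraint is known to shorten the apical dendrites of CA3 pyramidal neurons. Dissected hippocampus and cortex also carry non-neuronal tissue at their surfaces. The leptomeninges cover the cortex and make growth factors, collagens and retinoids, and the choroid plexus, which lies against the hippocampus in the lateral ventricle, secretes transthyretin into the cerebrospinal fluid.

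The arrays were checked against markers of their labelled regions. Among 21 neocortical layer genes, 14 were lower and 4 higher in handled hippocampus than in handled cortex, where the shares over all probe sets tested were 7.73% lower and 7.15% higher (14.9% in all). Of 20 hippocampal field genes, 6 were higher and 10 lower in handled hippocampus, with a median of -0.36. This list as a whole therefore did not bear out the hippocampal label. Among its higher members was the mineralocorticoid receptor gene Nr3c2. It had intensities of 1211, 1019.6 and 1109.7 in handled hippocampus, against 335, 317 and 298 in handled cortex. The layer gene Foxp2 had 15.9, 1.59 and 0.834 in handled hippocampus, against 217, 240.4 and 222 in handled cortex. The median intensity of the 12 arrays lay between 49.0 and 52.7. A larger 3' than 5' signal was seen for the beta-actin control in every group, by 1.61 ± 0.31 in stress hippocampus, 1.54 ± 0.23 in handled hippocampus, 1.61 ± 0.04 in stress cortex and 1.66 ± 0.05 in handled cortex (log2, SD, n = 3 each). For hexokinase the gap was 1.17 ± 0.15 in stress and 1.02 ± 0.11 in handled hippocampus. In cortex the hexokinase gap was 1.28 ± 0.12 after stress and 1.11 ± 0.09 in handled animals. For GAPDH the means were 0.23, 0.26, 0.24 and 0.29, in the order given for beta-actin. These control values were not tested.

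A difference between the regions in their response to stress was found for 14 probe sets, 0.0451% of those tested (limma, Benjamini-Hochberg adjusted p at most 0.05 over all 31042). Of these, 7 were positive (0.0226%) and 7 negative (0.0226%). The same fit called 56 probe sets for the hippocampal response taken by itself (0.18%), 14 higher (0.0451%) and 42 lower (0.135%), and 48 for the cortical response (0.155%), 12 higher (0.0387%) and 36 lower (0.116%). At an unadjusted p below 0.05 the shares were 5.22% for the difference, 9.37% for hippocampus and 7.50% for cortex. The standard error of the difference had a median of 0.286, against 0.202 for the response of each region, and the median probe set had a 95% interval of ± 0.595. For 12 of the 14 probe sets the responses of the regions had opposite signs, and for 2 the sign was shared. Over all 31042 probe sets, 17464 shared the sign. Selection for a large difference favours opposite signs, and the 12 include cortical responses of only 0.0004 for Wfs1 and -0.06 for Ttr. No probe set was called in both regions with opposite signs. The hippocampal response passed its own test for 7 of the 14 and the cortical response for 7, with 1 probe set passing both and 1 passing neither. Of the 14 probe sets, 11 carry 1 gene symbol and 3 carry none. The calls were not equally firm: Enpp2, Ywhab, Cd74 and Wfs1 lost the call in 14 to 16 of 22 other settings, most of which left out 1 array, and Nts and probe set 1374934_at in 8.

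**Figure D1:**
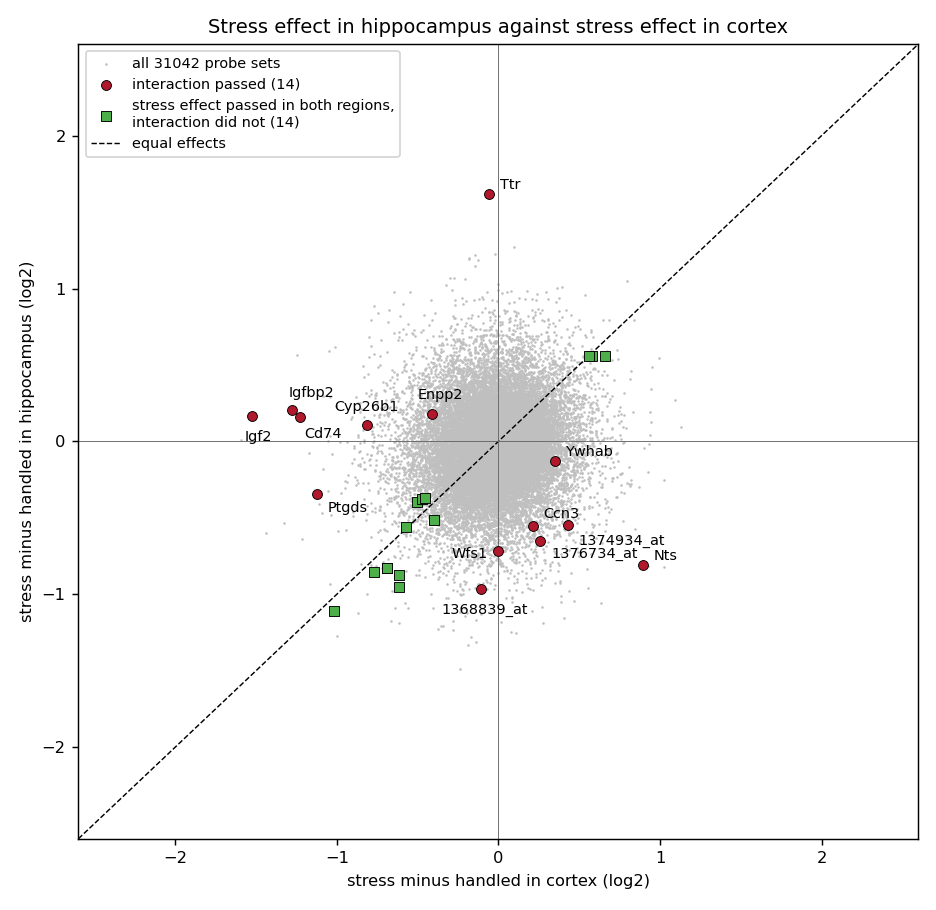
Cortical response to stress (x axis) against hippocampal response (y axis), both as stress minus handled on the log2(intensity + 16) scale, with 1 point per probe set. Marked points are the 14 probe sets whose responses differed between the regions: Igf2, Igfbp2, Cd74, Ptgds, Cyp26b1 and Enpp2 lie to the left, with a fall in cortex, Ttr lies at the top, and Nts lies at the lower right with opposite signs.

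Promoter sequences were read for genes whose responses differed. They are shown for Igfbp2 and Cyp26b1, which fell in cortex, for Ttr, which rose in hippocampus, and for Nts, whose signs were opposite. Each run is the 250 bases before the annotated start in RefSeq (build GRCr8), written 5′ to 3′ on the strand of the gene, and capitals mark a match to 1 of 6 motifs searched on both strands. The windows are chr9:81864561-81864810 on the plus strand for Igfbp2, chr4:118616177-118616426 on the minus strand for Cyp26b1, chr18:12218508-12218757 on the plus strand for Ttr and chr7:39460889-39461138 on the minus strand for Nts.
Igfbp2: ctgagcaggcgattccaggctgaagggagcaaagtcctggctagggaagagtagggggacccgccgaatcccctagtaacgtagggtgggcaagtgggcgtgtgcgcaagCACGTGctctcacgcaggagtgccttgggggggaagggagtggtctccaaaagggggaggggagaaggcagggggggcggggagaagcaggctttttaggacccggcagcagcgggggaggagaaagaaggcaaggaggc
Cyp26b1: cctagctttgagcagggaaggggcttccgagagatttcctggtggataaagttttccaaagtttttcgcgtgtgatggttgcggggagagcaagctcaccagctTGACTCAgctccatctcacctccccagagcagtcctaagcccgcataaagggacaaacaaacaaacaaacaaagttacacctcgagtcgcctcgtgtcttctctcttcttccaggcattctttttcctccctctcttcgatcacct
Ttr: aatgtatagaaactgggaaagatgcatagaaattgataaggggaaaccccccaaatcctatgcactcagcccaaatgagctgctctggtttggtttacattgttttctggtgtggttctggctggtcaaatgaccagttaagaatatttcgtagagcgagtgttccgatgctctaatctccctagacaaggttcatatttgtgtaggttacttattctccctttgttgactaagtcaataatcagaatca
Nts: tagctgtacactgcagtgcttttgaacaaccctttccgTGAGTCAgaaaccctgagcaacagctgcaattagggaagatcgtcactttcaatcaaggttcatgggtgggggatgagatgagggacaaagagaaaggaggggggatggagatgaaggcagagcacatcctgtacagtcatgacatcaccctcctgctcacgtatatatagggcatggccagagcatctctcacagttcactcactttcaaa
The capitals in Igfbp2 are an E-box (CACGTG), found in 5.59% of 33469 promoter windows of this length. Those in Cyp26b1 and Nts are an AP-1 site (TGACTCA or its reverse complement), found in 4.05% of the windows. The Ttr window held no match to these motifs, nor to the TATA box (TATAAA, 12.9% of windows), the CCAAT box (CCAAT, 34.0%), the glucocorticoid receptor half-site (TGTTCT, 17.5%) or the cAMP response element (TGACGTCA, 1.59%). Of the 11 named genes, 8 had a single entry in the promoter table. A CCAAT box stood in 3 of the 8, an AP-1 site in 2 and an E-box in 1, and no matches overlapped. A match is a description of the letters and not of a site in use.

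Among the called genes, 3 encode secreted proteins that meningeal cells make, Igf2, Igfbp2 and Ptgds, and these fell after stress in cortex and fell less, or did not pass, in hippocampus. Igf2, which encodes a growth factor made in the adult brain mainly by leptomeninges and choroid plexus, had intensities of 187, 192 and 224 in stress hippocampus, against 192, 184 and 155 in handled hippocampus. In cortex it had 110.4, 175 and 140.3 after stress, against 419, 414 and 465 in handled animals. The cortical groups did not overlap, the hippocampal groups did, and the 3 handled cortex arrays stood above the other 9. The mean stress intensity was 0.328 times the handled mean in cortex and 1.13 times in hippocampus, and the difference of the responses was 1.69 ± 0.17 (log2, SE, adjusted p = 5.59e-05), with a 95% interval of 1.33 to 2.06. Fewer cells of a type and less RNA per cell cannot be told apart in such bulk samples. Of the other Igf2 probe sets, all dim, the differences were 0.43, -0.13 and 0.20.

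Igfbp2, which encodes a binding protein for insulin-like growth factors, followed the same pattern. Its intensities were 176, 151 and 173 in stress hippocampus, against 119.5, 141 and 169.9 in handled hippocampus, and 164, 115 and 138 in stress cortex, against 382, 355 and 333 in handled cortex. The handled cortex arrays were again the high ones, and the difference was 1.48 ± 0.17 (adjusted p = 1.68e-04). Ptgds, which encodes the prostaglandin D synthase that is also a major protein of cerebrospinal fluid, fell in both regions. Its intensities were 1214, 1181 and 1217 in stress hippocampus, against 1624, 1446 and 1536 in handled hippocampus, a response of -0.35 (adjusted p = 0.00926). In cortex they were 1448, 1369.7 and 1367 after stress, against 3178, 2971 and 3019 in handled animals, a response of -1.12 (adjusted p = 1.64e-10). The groups of neither region overlapped, and the fall was the larger one in cortex, by 0.78 ± 0.08 (adjusted p = 5.59e-05).

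**Figure D2:**
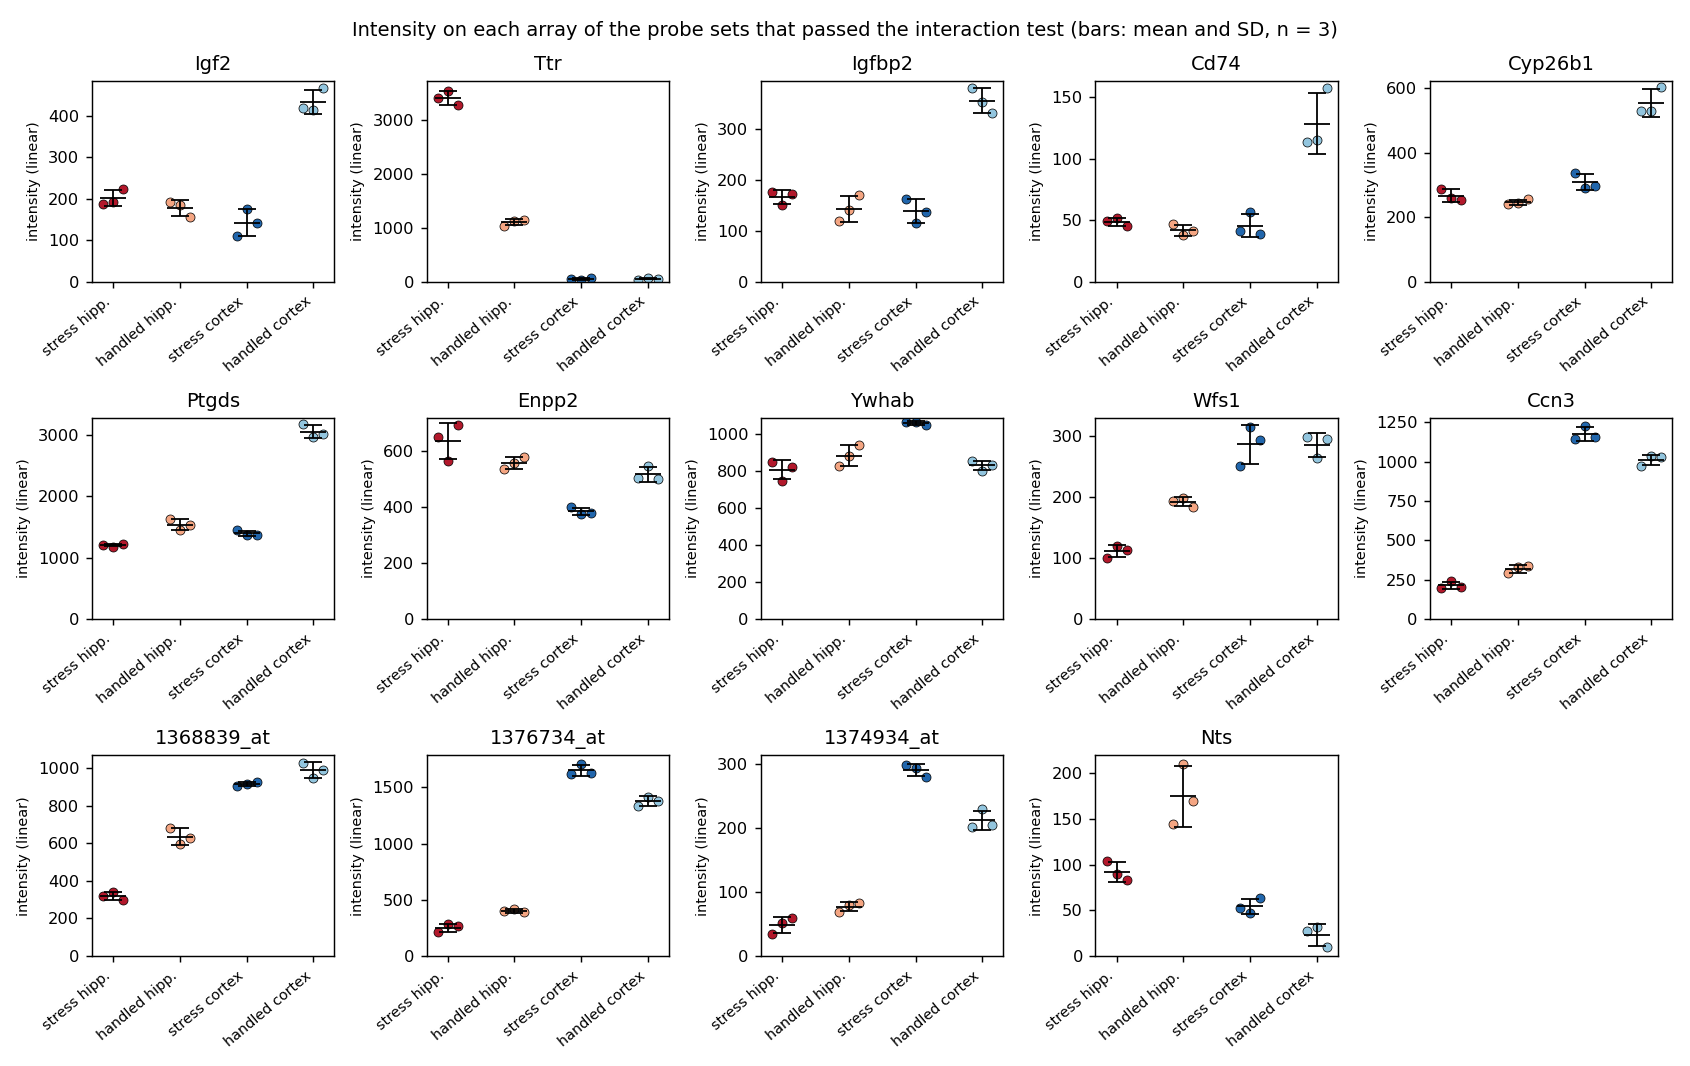
Intensity of each array (y axis, linear, from 0) for the 14 probe sets whose stress responses differed between the regions, 1 panel each. Points are single arrays, and bars are group means with their SD (n = 3), in the order stress hippocampus, handled hippocampus, stress cortex and handled cortex. In the panels of Igf2, Igfbp2, Cyp26b1 and Cd74 the handled cortex arrays stand above the other groups, and in that of Ttr the stress hippocampus arrays do.

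The list of 18 meningeal fibroblast markers, all measured, gave the same direction. The difference was above 0 for 17 of 18, with a median of 0.81, against 51.9% above 0 and a median of 0.01 for all 14217 named genes. Only Igf2, Igfbp2 and Ptgds passed the test of the difference. All 18 had a negative response in cortex, with a median of -0.93, against -0.02 for all named genes. There 7 passed as lower, against 0.116% of all probe sets tested, and the 7 include Igf2, Igfbp2 and Ptgds. Also among them were the fibrillar collagen genes Col1a2 at -1.44 and Col3a1 at -1.22, the gap junction gene Gjb2 at -1.11 and the proteoglycan gene Ogn at -0.95. The hippocampal median was -0.18, and 1 gene, Ptgds, passed there. Dcn, a small proteoglycan, and Slc13a4, a sulphate transporter, had differences of 1.06 and 1.07 that did not pass. Col1a1 was the 1 gene below 0, at -0.45. The summed intensity of the 18 genes was 2185 to 2281 in stress hippocampus, against 2565 to 2754 in handled hippocampus, and 2606 to 2645 in stress cortex, against 5800 to 6007 in handled cortex. Ptgds makes up much of this sum. No marker was at 0, but some were dim, such as Slc22a6 at 1.47, 24.3 and 6.71 in stress cortex. How much meningeal tissue each dissection held was not tested. Igf2, Igfbp2 and Ptgds were in the list when their results were known, so its count is no independent evidence of their direction.

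**Figure D3:**
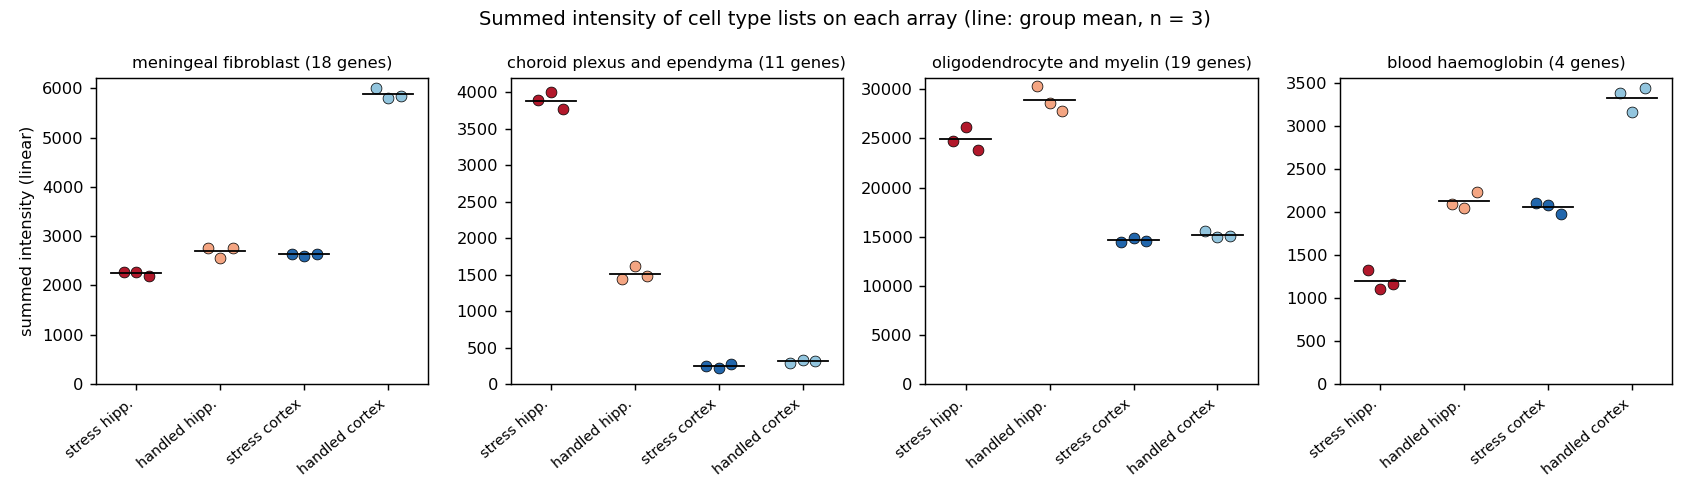
Summed intensity per array (y axis) of the genes of 4 cell-type lists, by group, with points for arrays and lines for group means. The meningeal sum is high in the 3 handled cortex arrays, at 5800 to 6007. The choroid plexus sum is high in the 3 stress hippocampus arrays, at 3770 to 4003, and the haemoglobin sum is lower after stress in both regions. Single genes carry much of these sums. By the means, Ttr makes up 3410 of 3889 of the choroid plexus sum in stress hippocampus and 1102 of 1513 in handled hippocampus. Ptgds makes up much of the meningeal sum, and Hbb most of the haemoglobin sum.

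One gene of retinoid handling and one of antigen presentation also passed as lower in cortex and did not pass in hippocampus. Cyp26b1, which encodes an enzyme that degrades retinoic acid, had intensities of 289, 259.7 and 252 in stress hippocampus, against 240.0, 244 and 255 in handled hippocampus. In cortex it had 337, 292 and 298 after stress, against 529, 530.2 and 604 in handled animals. The cortical groups did not overlap and the hippocampal groups overlapped, with a difference of 0.92 ± 0.10 (adjusted p = 1.38e-04). The other, dimmer Cyp26b1 probe set had a difference of 0.36 that did not pass. Its responses were 0.28 in hippocampus and -0.08 in cortex, against 0.11 and -0.81 for the called probe set. Of 18 retinoic acid genes, 2 passed, Cyp26b1 and Ttr, and the list median was 0.09. Crabp2, a retinoic acid binding protein, had 0.84 and Cyp26a1, the related degrading enzyme, -0.51, and neither passed.

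Cd74 encodes the invariant chain that escorts MHC class II molecules. It had intensities of 49.3, 51.8 and 45.2 in stress hippocampus, against 46.9, 38.1 and 40.9 in handled hippocampus, and 41.3, 56.8 and 39.0 in stress cortex, against 113, 115 and 157 in handled cortex. The 3 handled cortex arrays were the high ones, and the difference was 1.39 ± 0.25 (adjusted p = 0.0412). Over the 22 other settings the Cd74 difference ran from 0.90, with an offset of 64, to 1.69, with an offset of 1, and its adjusted p from 0.0117 to 0.244, with the call lost in 15. Among the 23 antigen presentation and interferon genes no other passed, and the list median was 0.06. The class II chains RT1-Da and RT1-Db1 each had a difference of 1.06, with 95% intervals of 0.41 to 1.71 for RT1-Da and 0.06 to 2.06 for RT1-Db1, and did not pass. Both had low values. RT1-Da was at 30.7, 20.8 and 33.0 in handled hippocampus, and RT1-Db1 at 8.90, 7.37 and 18.8 in stress cortex.

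Enpp2 encodes autotaxin, which makes lysophosphatidic acid and is expressed by oligodendrocytes and choroid plexus. Its intensities were 649, 565 and 693 in stress hippocampus, against 536, 556 and 578 in handled hippocampus. In cortex they were 399, 374 and 379.6 after stress, against 503, 547 and 500.0 in handled animals, and the groups did not overlap. The cortical response passed at -0.41 (adjusted p = 0.0189), the hippocampal response of 0.18 did not (adjusted p = 0.439), and the difference was 0.59 ± 0.11 (adjusted p = 0.0393). Lpar1, a receptor of the same lipid, fell in both regions, by 0.52 in hippocampus and by 0.40 in cortex, with a difference of -0.12 that did not pass.

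Most other oligodendrocyte genes had differences of the opposite sign to Enpp2. Of 19 measured genes of the 22 in that list, 17 had a negative difference, with Enpp2 and Aspa the exceptions, the median was -0.21 and none passed as negative. Mag, a myelin adhesion molecule, had intensities of 335, 399.9 and 402 in stress hippocampus, against 497, 482 and 494 in handled hippocampus, and 225, 213 and 226 in stress cortex, against 176, 176 and 182 in handled cortex. Its difference of -0.66 ± 0.14 did not pass (adjusted p = 0.200), although the groups of neither region overlapped. The summed intensity of the list was 23839 to 26117 in stress hippocampus, against 27775 to 30317 in handled hippocampus, and 14483 to 14870 in stress cortex, against 14923 to 15615 in handled cortex.

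Ttr encodes transthyretin, a carrier of thyroid hormone and of retinol-binding protein that choroid plexus epithelium makes in large amounts. It had intensities of 3408, 3549 and 3274 in stress hippocampus, against 1038, 1128 and 1138 in handled hippocampus. In cortex it had 58.3, 32.1 and 68.1 after stress, against 40.4, 65.2 and 57.9 in handled animals. The rise in hippocampus was 3.10-fold by the means, the cortical groups overlapped, and the difference was 1.67 ± 0.20 (adjusted p = 2.29e-04, 95% interval 1.25 to 2.10). Ttr was the only named gene among the 7 positive probe sets that rose in hippocampus by its own test.

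Of the 11 measured choroid plexus and ependyma genes of 14, Ttr was the 1 that passed, 9 had a difference above 0 and the median was 0.41. Ace, the angiotensin-converting enzyme, had a difference of 1.16 and Sostdc1, a secreted antagonist of bone morphogenetic protein and Wnt signalling, 1.07, and neither passed. Ace was dim, at 4.30, 23.5 and 26.7 in handled hippocampus. Sostdc1 had 77.3, 79.7 and 87.3 in stress hippocampus, against 30.6, 40.7 and 35.4 in handled hippocampus, without overlap, and its hippocampal response had an adjusted p of 0.0645. Aqp1, the water channel of the same epithelium, had -0.22. The summed intensity of the list was 3770 to 4003 in stress hippocampus, against 1442 to 1612 in handled hippocampus, and 221 to 273 in stress cortex, against 291 to 332 in handled cortex. Ttr makes up most of this sum in hippocampus. No marker was at 0, though Ace was dim, and the part of choroid plexus carried along with the hippocampus in the Ttr result was not tested.

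Among genes of neurons, Nts showed opposite signs without passing in either region. It encodes neurotensin, a neuropeptide. Its intensities were 104, 89.5 and 82.8 in stress hippocampus, against 144, 209.6 and 169.6 in handled hippocampus, and 52.4, 47.1 and 63.7 in stress cortex, against 27.3, 32.0 and 9.86 in handled cortex. All 3 stress arrays lay below the handled ones in hippocampus and above them in cortex. The responses were -0.81 in hippocampus (adjusted p = 0.133) and 0.89 in cortex (adjusted p = 0.0970), and the difference was -1.70 ± 0.28 (adjusted p = 0.0192, 95% interval -2.29 to -1.11). The handled cortex values of Nts were low, so the size depended on the offset: it was -2.25 with an offset of 1 and -1.06 with an offset of 64, and the adjusted p ran from 0.00599 to 0.114 over the 22 other settings. In handled animals Nts was higher in hippocampus than in cortex by 2.32, and after stress by 0.62. No other of the 28 neuropeptide and receptor genes passed, and their median was -0.05.

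Wfs1 and Ccn3 fell in hippocampus. Wfs1, which encodes an endoplasmic reticulum membrane protein and marks CA1 pyramidal neurons in rodents, had intensities of 100.4, 119.7 and 113 in stress hippocampus, against 194, 198 and 184 in handled hippocampus. In cortex it had 251, 314 and 293 after stress, against 297, 263 and 295 in handled animals. The hippocampal groups were apart by a ratio of means of 0.578, the cortical groups overlapped, and the difference was -0.71 ± 0.13 (adjusted p = 0.0462). Ccn3, a secreted matricellular protein, had 198, 239 and 203 in stress hippocampus, against 290.3, 331 and 336 in handled hippocampus. In cortex it had 1144, 1225 and 1154 after stress, against 974, 1035 and 1027 in handled animals. The groups of neither region overlapped and they moved in opposite directions, but only the hippocampal response of -0.55 passed (adjusted p = 7.48e-04, against 0.437 in cortex). The difference for Ccn3 was -0.76 ± 0.10 (adjusted p = 0.00142).

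Wfs1 was the 1 gene of the 20 hippocampal field and granule cell genes that passed. The difference was below 0 for 14 of them, with a median of -0.17. Pou3f1, a transcription factor of CA1 and of cortical pyramidal neurons, had 90.5, 82.6 and 90.5 in stress hippocampus, against 172, 177 and 218 in handled hippocampus, and 179.9, 171 and 162 in stress cortex, against 184, 144 and 162 in handled cortex. It fell in hippocampus (-0.97, adjusted p = 0.00208), and its difference of -1.04 ± 0.20 did not pass (adjusted p = 0.0833). Ldb2, a LIM domain binding protein, and Gpr161, an orphan receptor of the primary cilium, likewise fell in hippocampus, with differences of -0.74 (adjusted p = 0.227) and -0.81 (adjusted p = 0.339). None of 21 neocortical layer genes passed, and their median was 0.09.

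Ywhab, which encodes the beta form of the 14-3-3 adaptor proteins, was the only named gene that rose in cortex by its own test among the 14. Its intensities were 844, 746 and 821 in stress hippocampus, against 824, 880.1 and 940.5 in handled hippocampus, and 1061, 1065 and 1048 in stress cortex, against 852, 801 and 832 in handled cortex. The cortical groups did not overlap (0.35, adjusted p = 0.0108), the hippocampal groups did, and the difference was -0.48 ± 0.09 (adjusted p = 0.0393). The brighter of its probe sets had a difference of 0.07 that did not pass, so the probe sets of Ywhab disagree in sign.

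The 3 probe sets without a symbol all fell in hippocampus. Probe set 1368839_at had 316, 339.9 and 296 in stress hippocampus, against 681, 595 and 627 in handled hippocampus, and 903, 912 and 928 in stress cortex, against 1028, 944 and 991 in handled cortex. It fell in hippocampus by 0.96 (adjusted p = 3.97e-08), and the difference was -0.86 ± 0.09 (adjusted p = 6.56e-05). Probe set 1376734_at had 212, 281 and 262 in stress hippocampus, against 401, 418 and 387 in handled hippocampus, and 1617, 1709.6 and 1626 in stress cortex, against 1332, 1417 and 1379 in handled cortex. Its groups were apart in both regions with opposite signs, and the difference was -0.91 ± 0.11 (adjusted p = 1.38e-04). Probe set 1374934_at had 34.6, 50.7 and 59.6 in stress hippocampus, against 69.0, 79.2 and 83.0 in handled hippocampus, and 298, 293 and 279 in stress cortex, against 202, 229 and 205 in handled cortex. It showed the same arrangement, with a difference of -0.98 ± 0.16 (adjusted p = 0.0163).

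**Figure D4:**
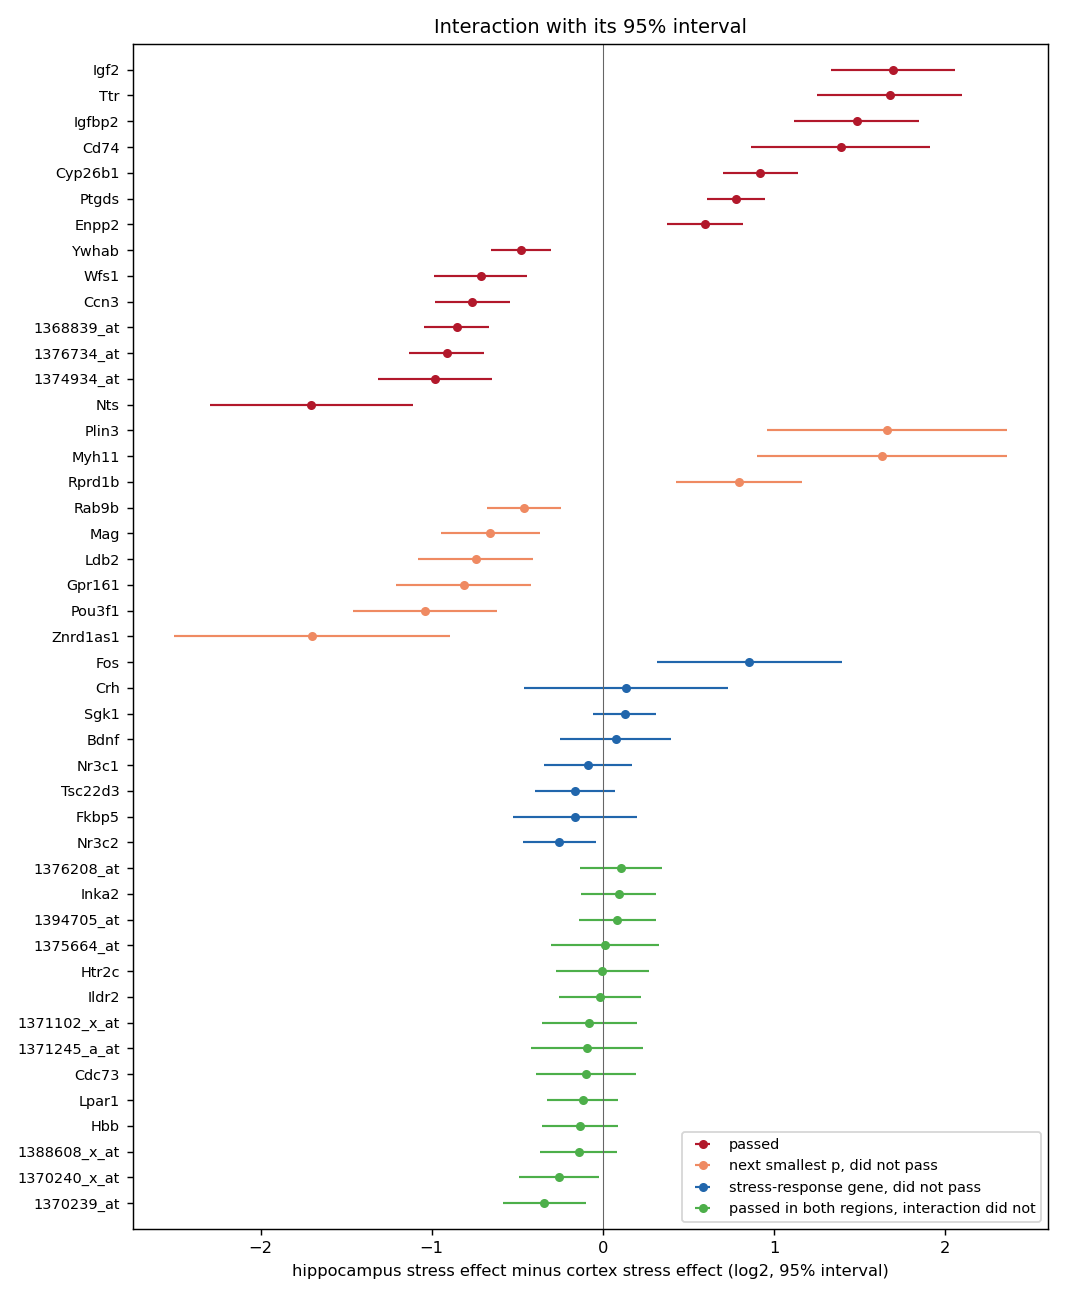
Hippocampal response minus cortical response (x axis, log2) with its 95% interval for named probe sets. Positive values mean relatively higher after stress in hippocampus. The intervals are unadjusted, so those of the 14 probe sets that passed had to be clear of 0. Some that did not pass are clear of 0 too, among them Plin3, Pou3f1, Mag and Fos. Of the 8 stress-response genes Fos lies farthest from 0, at 0.86.

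Because the quantity is a difference of differences, it is also the change in the gap between hippocampus and cortex. Of the 14 probe sets, 12 differed between the handled regions, 10 of them lower and 2 higher in hippocampus, and 11 differed between the regions after stress. The shares over all probe sets tested were 14.9% in handled animals, 7.15% higher and 7.73% lower in hippocampus. After stress they were 14.2% in all, 6.72% higher and 7.46% lower in hippocampus. The 14 were chosen for a large change in this gap, which by itself favours a gap in at least 1 condition. The counts are therefore no independent evidence that such genes differ between the regions. For 5 of the 7 positive probe sets the gap was smaller after stress. Cyp26b1 was lower in hippocampus by 0.20 after stress (adjusted p = 0.0847), against a gap of -1.12 in handled animals. For Igf2 the order of the regions turned: hippocampus was higher by 0.48 after stress (adjusted p = 0.00945), against -1.22 in handled animals. For 6 of the 7 negative probe sets the gap was larger after stress, and Nts was the exception. These gaps share arrays with the responses above and are the same contrast arranged another way.

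Most probe sets that responded in 1 region were not shown to differ between the regions. Of the 56 called in hippocampus, 44 had the same sign in cortex and 7 passed the test of the difference. Of the 48 called in cortex, 38 had the same sign in hippocampus and 7 passed. Over all 31042 probe sets, 17464 had the same sign in both regions. Both regions called 15 probe sets, 12 lower and 3 higher in both, and 14 of the 15 did not pass as different, with Ptgds the exception. The 14 differences ran from -0.34 to 0.10, and their 95% intervals, unadjusted, had ends from -0.58 to 0.34. Hbb, the beta-globin chain of haemoglobin, had intensities of 1278, 1067 and 1092 in stress hippocampus, against 1989, 1968 and 2163 in handled hippocampus, and 2050.1, 2002 and 1885 in stress cortex, against 3264, 3055 and 3295 in handled cortex. Its fall was 0.83 in hippocampus and 0.69 in cortex, with a difference of -0.14 (95% interval -0.36 to 0.09).

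Htr2c, the serotonin 2C receptor, rose in both regions. It had 152, 211 and 149.9 in stress hippocampus, against 114, 99.2 and 117 in handled hippocampus, and 932, 883 and 865 in stress cortex, against 599, 595 and 609 in handled cortex. The response was 0.56 in each region, and the interval of the difference ran from -0.28 to 0.27. The other, dimmer probe set of Htr2c had responses of -0.04 in hippocampus and 0.03 in cortex. Cdc73, a component of the Paf1 transcription elongation complex, rose by 0.56 in hippocampus and 0.66 in cortex, and 1 probe set of Ildr2, an immunoglobulin-like membrane protein, rose by 0.56 in hippocampus and 0.58 in cortex. Another, brighter probe set of Ildr2 had responses of only 0.09 in hippocampus and 0.12 in cortex, and the others had 0.01 and 0.29 in hippocampus and 0.05 and 0.56 in cortex, so the probe sets of Ildr2 disagree in size. Inka2 fell by 0.38 in hippocampus and by 0.47 in cortex.

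The 8 genes named for their part in the stress response gave no called difference. Of these 8 genes, the immediate early gene Fos had the largest value, 0.86 ± 0.26 (adjusted p = 0.650). Its intensities were 66.9, 31.6 and 46.4 in stress hippocampus, against 52.1, 36.7 and 58.7 in handled hippocampus, and 81.8, 65.5 and 68.0 in stress cortex, against 158, 147 and 136 in handled cortex. The cortical groups did not overlap, and the cortical response of -0.90 had an adjusted p of 0.0511. The mineralocorticoid receptor gene Nr3c2 had a difference of -0.26 (adjusted p = 0.911), with intensities of 1077, 1091 and 1076 in stress hippocampus, against 1211, 1019.6 and 1109.7 in handled hippocampus. The glucocorticoid receptor gene Nr3c1 had -0.09, with a 95% interval of -0.35 to 0.17. The glucocorticoid-induced genes Fkbp5, Tsc22d3 and Sgk1 had differences of -0.16, -0.16 and 0.13, the neurotrophin gene Bdnf 0.07 and the corticotropin-releasing hormone gene Crh 0.13. Of 24 immediate early genes 17 were above 0 and none passed, with a median of 0.10. Of 21 glucocorticoid receptor and target genes none passed, with a median of -0.05.

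**Figure D5:**
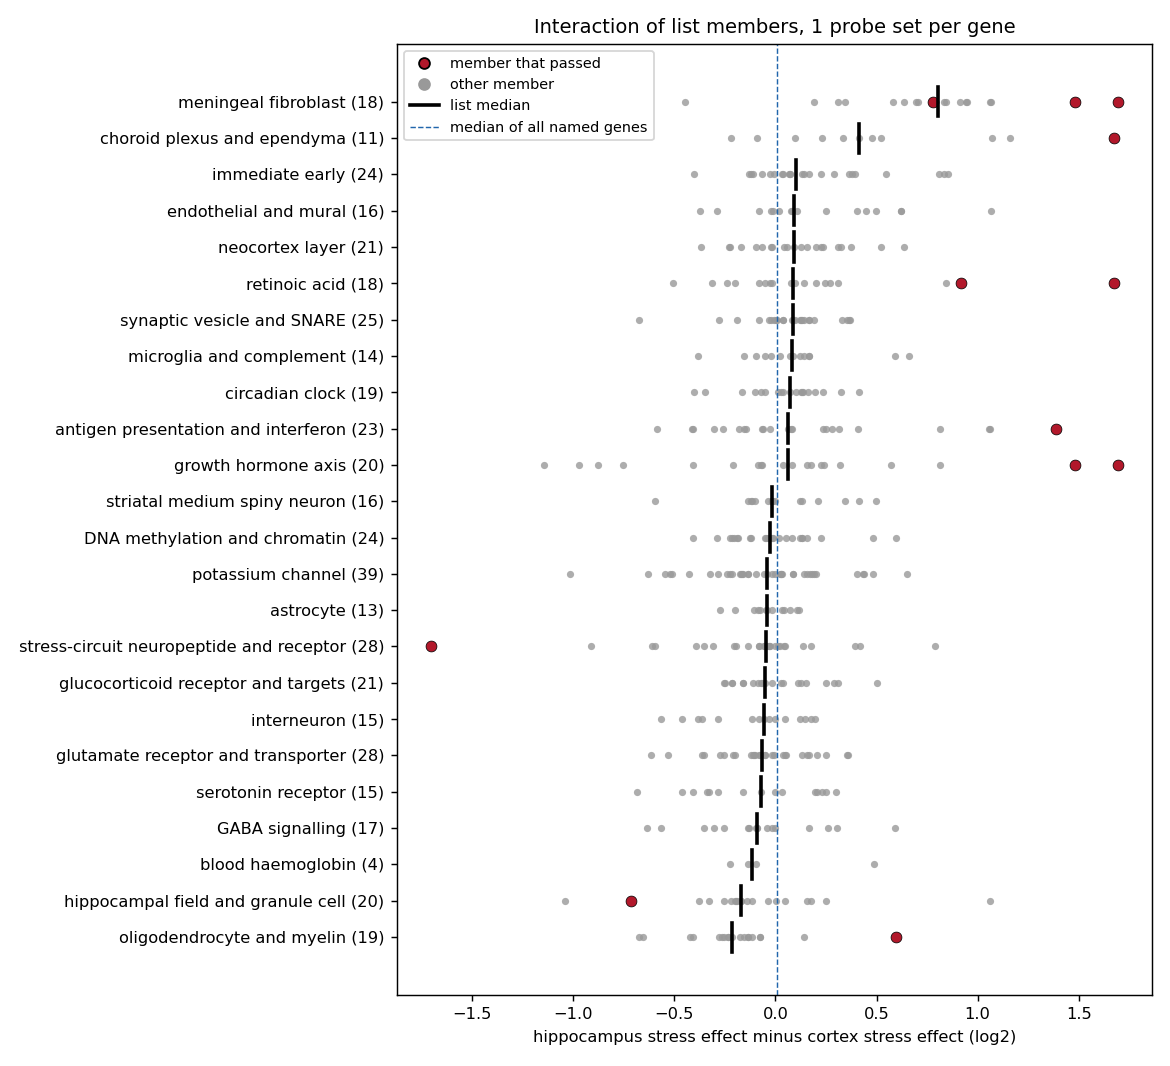
Hippocampal response minus cortical response (x axis, log2) of every measured gene in 24 lists (rows), with the list median marked. Meningeal genes lie mostly above 0 (median 0.81), choroid plexus genes have a median of 0.41, oligodendrocyte genes one of -0.21, and the other medians lie nearer 0.

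The other lists stood near the median of all named genes. No gene passed among the lists for endothelial and mural cells (16 genes, median 0.09), microglia (14, 0.08), astrocytes (13, -0.04), interneurons (15, -0.06), glutamate receptors and transporters (28, -0.06), GABA signalling (17, -0.09), serotonin receptors (15, -0.07), the circadian clock (19, 0.07) or synaptic vesicles (25, 0.09). The same held for potassium channels (39, -0.04), DNA methylation and chromatin (24, -0.03), striatal neurons (16, -0.02) and haemoglobin and red cell genes (4, -0.12). Gfap, the astrocyte filament gene, had a difference of -0.20, and Hdac5, a histone deacetylase, one of 0.60, the largest of the chromatin list, and neither passed.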

How the data were processed

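Total RNA of rat brain regions was measured on Affymetrix arrays, and the authors deposited linear intensity values for 31099 probe sets, scaled to a common trimmed mean as the files show. The summarisation method is not given in the sources used here. All 12 hippocampus and cortex arrays and the other 6 arrays, from amygdala, were fitted together as 6 group means on log2(intensity + 16) with limma 3.58.1 (R 4.3.3, variance trend). The amygdala arrays gave residual degrees of freedom (12 in all) and entered neither response nor their difference, and their own stress response was tested in the same fit. Adjustment was by Benjamini-Hochberg over all 31042 probe sets, two-sided. Symbols came from the platform annotation, updated through RefSeq (GRCr8): 20832 probe sets had 1 symbol, 436 several and 9831 none. Lists used the brightest probe set of a gene. Named were called genes (up to 15 per direction, filled to 10 by raw p), called list members, up to 3 others per list and 8 stress genes, plus, chosen after their values were seen, genes called in both regions, meningeal genes called in cortex, Col1a1, Aqp1 and Aspa. Members and lists were chosen with earlier results of these data known. The fit was tested on simulated data. The number of arrays limits the precision.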

Additional observations from a re-analysis of the deposited data

Results flagged for a closer look

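The 14 differences between the hippocampal and the cortical response to stress that passed the test are given here together, on the log2 scale, as hippocampus minus cortex. The positive ones were Igf2 (1.69), Ttr (1.67), Igfbp2 (1.48), Cd74 (1.39), Cyp26b1 (0.92), Ptgds (0.78) and Enpp2 (0.59). The negative ones were Nts (-1.70), probe set 1374934_at (-0.98), probe set 1376734_at (-0.91), probe set 1368839_at (-0.86), Ccn3 (-0.76), Wfs1 (-0.71) and Ywhab (-0.48). Each stands out because a test of the difference itself passed, with 3 arrays per group.

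In the amygdala arrays of the series, which entered none of these contrasts, 1 of the 14 probe sets had a called stress response, that of Ywhab, at -0.43 (adjusted p = 5.68e-04). The share of all probe sets called in amygdala is not given here, so this count cannot be read as few or many. In the amygdala Igf2 had -0.03 and Ptgds -0.03, and Ttr had 0.44 (adjusted p = 0.190).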

How the results depend on the processing

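Of the 14 differences, 7 passed under all 22 alternatives (12 that left out an array and 10 others): Igf2, Ptgds, Cyp26b1, Igfbp2, Ttr, 1368839_at and 1376734_at. Ccn3 lost the call only without the variance trend. Nts and 1374934_at each lost it in 8 of the 22, including the fit on the 12 arrays alone, Enpp2 in 14, Ywhab in 15, Cd74 in 15 and Wfs1 in 16. The count of called differences was 8 without the variance trend and 8 to 13 with 1 array left out, lowest without handled hippocampus replicate 2 or 3. For the hippocampal response the count was 31 without the trend, 31 with array weights and 24 to 55 with 1 array left out. For the cortical response it was 80 on the 12 arrays alone, 25 without the trend, 361 with array weights and 24 to 64 with 1 array left out, and the cause was not tested. The regional gap had 3702 to 4677 calls in handled and 3461 to 4559 in stress animals with 1 array left out. Of 72 list medians under alternatives, 66 moved little. With a filter on dim probe sets the choroid plexus median was 0.52, antigen presentation 0.17 and potassium channels 0.011. Over all probe sets of a gene, astrocytes had -0.10, the growth hormone axis -0.031 and DNA methylation -0.10. The Bdnf difference ran from -0.027 (without stress hippocampus replicate 3, a change of sign) to 0.18 with 1 array left out. Same-numbered hippocampus and cortex arrays of a treatment correlated at 0.0104 to 0.0389, below 0.1, so the numbers were not taken to pair them, although differently numbered ones correlated less, at -0.0254 to 0.00699. With the replicate block 10 differences were called, and 12 with the block within treatment.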

Other observations

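The growth hormone axis list of 20 genes held both Igf2 and Igfbp2 as called differences, with a list median of 0.06, and its other leading members pointed the other way. Gh1, the growth hormone gene, had intensities of 40.6, 54.0 and 52.0 in stress hippocampus, against 141, 106 and 118 in handled hippocampus, and 40.8, 35.0 and 28.5 in stress cortex, against 46.5, 29.7 and 53.8 in handled cortex. It fell in hippocampus (adjusted p = 0.00749) and its difference of -0.88 ± 0.25 did not pass (adjusted p = 0.592). Socs2, a growth hormone-induced inhibitor of cytokine signalling, also fell in hippocampus (adjusted p = 0.0313), with a difference of -1.14 that did not pass. The pituitary hormone gene Prl, also dim, had -0.97 (adjusted p = 0.964).

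Myh11, the smooth muscle myosin heavy chain, had intensities of 79.3, 27.0 and 70.2 in stress hippocampus, against 28.6, 26.8 and 35.4 in handled hippocampus, and 34.8, 59.6 and 68.1 in stress cortex, against 118, 125 and 125 in handled cortex. The handled cortex arrays were the high ones, and the difference was 1.63 ± 0.35 (adjusted p = 0.218). In the endothelial and mural list, 11 of 16 genes were above 0 and 5 below, none passed, and values ran from -0.37 to 1.07 with a median of 0.09. Its members named for their size were Myl9, a myosin light chain, at 1.07, and Kdr, an endothelial growth factor receptor, and Acta2, smooth muscle actin, each at 0.62. Plin3, a lipid droplet protein, was dim, at 18.6, 4.29 and 9.14 in handled hippocampus. Its difference of 1.66 (adjusted p = 0.125) ran from 0.73 to 2.93 over the other settings. Rprd1b, a regulator of RNA polymerase II, rose in hippocampus (adjusted p = 0.0182) with a difference of 0.79 that did not pass. Among negative values, Rab9b, a small GTPase of endosomal traffic, had -0.46 (adjusted p = 0.272), and the dim Znrd1as1 had -1.70 (adjusted p = 0.325). The summed intensity of the endothelial and mural list was 1497 to 1625 in stress hippocampus, against 1651 to 1727 in handled hippocampus, and 1708 to 1794 in stress cortex, against 2054 to 2249 in handled cortex.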
